A study of Rattus with 9 samples.

Results

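The transcriptome described here is that of thoracic dorsal root ganglia of sham-operated rats. It rests on 4 of the 9 libraries of a study that sequenced poly-A RNA of these ganglia 8 weeks after surgery, in 5 rats with infarction by ligation of a coronary artery and in 4 sham rats. The sham libraries were chosen by their labels, and the infarction libraries enter none of the values below. All 4 rats are labelled SD rat and sham, with no added agent or transgene, and the sham group had the operation without the ligation. The deposited sample sheet places the tissue at the ganglia T1 to T4. Each library came from a separate rat, so the spread given here is between animals. The whole ganglion was extracted, so nerve, vessels, sheath and blood in the vessels contribute RNA. Age and sex are not given in the sources used here.

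Sensory neurons have their cell bodies in the dorsal root ganglia and carry touch, position, temperature, pain and itch signals to the spinal cord, and at upper thoracic levels also signals from the heart. Each cell body is wrapped by satellite glia and each axon is accompanied by Schwann cells, some of which form myelin. Fibroblasts, a perineurial and meningeal sheath, vessels and resident macrophages make up the rest of the ganglion. The neurons fall into classes that differ in axon size, peptide content and ion channels. Such classes are recognised by marker genes.

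Expression is given as the authors' RPKM, reads scaled by transcript length and library size, and errors are the SD over 4 rats. A gene counts as expressed where its RPKM was at least 1 in all 4 libraries. That held for 10474 of 17378 genes, or 60.3%. A further 823 genes reached 1 RPKM in some but not all libraries, 6081 were below 1 in all 4, and 3122 had no read in any. At least 10 RPKM in all 4 libraries was reached by 4799 genes, at least 100 by 467 and at least 1000 by 14. The median expressed gene had 9.69 RPKM, carried by a mean of 235 reads per library. Close to the threshold, 121 expressed genes had their lowest library under 1.1 RPKM, and 137 genes missed it with a lowest library between 0.9 and 1. Hoxc5, for example, passed with 1.12 RPKM in its lowest library and Hoxd3 did not, with 0.833. The 238 expressed genes with a mean under 1.5 RPKM had a median of 38.5 reads, at which counting alone gives a coefficient of variation (CV) of 16.1%.

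The libraries were alike in depth and quality. Counts per gene summed to between 5656582 in Sham 1 and 6313128 in Sham 2, the RNA integrity number lay between 8.2 and 8.4, and 60.3 to 60.8% of reads fell fully in exons. Between 28.8 and 29.3% fell between genes. Between 13449 and 13566 genes per library had at least 1 read. As a check for a library deposited more than once, the chi-square of counts per degree of freedom was taken for the 6 pairs and ran from 2.82 to 3.88, so no pair was a copy. Sham 3 carried more RNA of muscle and T cell genes than the other libraries, Sham 1 more of the sheath gene Ptgds, and Sham 2 less globin RNA. These values stand beside the results they touch.

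The most abundant transcripts were those of the neuronal cytoskeleton, of myelin, of glia and of red blood cells. Hba1, an alpha chain of haemoglobin, stood first at 2771 ± 614 RPKM. Next came Nefl, the light neurofilament chain, at 2712 ± 120 RPKM, then Fth1, the heavy chain of the iron store ferritin, at 2514 ± 182, and Nefm, the medium neurofilament chain, at 2440 ± 100. The ranges of Hba1 and Fth1 overlapped those of both neurofilament chains, so their ranks are not fixed by these data, while Nefl was above Nefm in each of the 4 rats. Nefl had 2831, 2607, 2611 and 2799 RPKM in Sham 1 to Sham 4, and Nefm had 2517, 2356, 2351 and 2536. Both chains were thus highest in Sham 1 and Sham 4, and the highest library exceeded the lowest by 1.097-fold for Nefl and 1.09-fold for Nefm in CPM. Nefh, the heavy chain, was at 1208 ± 36.8 RPKM.

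Cytoskeletal genes filled further places. Tuba1a, an alpha tubulin of neurons, averaged 1892 ± 64.2 RPKM, Tuba1b 1048 ± 17.9 and Tubb3, the neuronal beta tubulin, 975 ± 13.5. Tmsb4x and Tmsb10, which bind free actin, averaged 2041 ± 99.4 and 838 ± 36.5 RPKM. Stmn2, a microtubule regulator of growing and mature axons, averaged 869 ± 44.4 RPKM. Tubulin copies share long stretches of sequence and the split between Tuba1a and Tuba1b is uncertain for that reason. Sncg, the gamma synuclein of peripheral neurons, was at 1592 ± 129 RPKM, and Uchl1, a ubiquitin hydrolase abundant in neurons, at 1351 ± 42.8.

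Glial transcripts reached similar levels. Pmp22, a membrane protein of peripheral myelin, averaged 931 ± 91.0 RPKM. Apoe, a lipid carrier made by satellite glia and macrophages, averaged 1845 ± 131. Sparc, a matrix protein made by glia and fibroblasts, averaged 797 ± 46.9, and Apod, a lipid carrier of nerve fibroblasts and Schwann cells, 818 ± 126 RPKM. Further genes among the first 25 were Ubb and Eef1a1, for ubiquitin and for protein synthesis, Ppia, a protein folding enzyme, the beta globin Hbb, LOC100134871, and Ptgds, the prostaglandin D synthase of the meninges. Ubb was the steadiest of the 25, with 1179, 1194, 1194 and 1200 RPKM in Sham 1 to Sham 4. Ptgds was the least steady, at 1628 RPKM in Sham 1, against 544, 797 and 623 in Sham 2 to Sham 4.

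**Figure D1:**
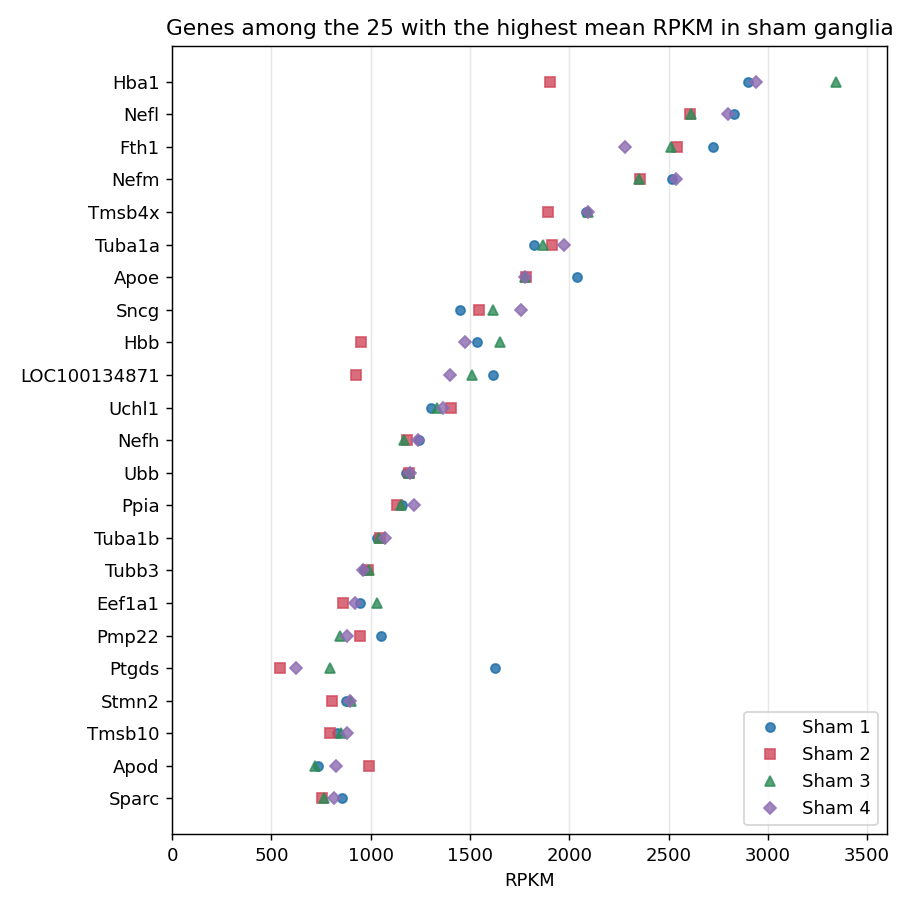
RPKM (horizontal axis, from 0) of genes among the 25 with the highest mean, ordered by rank from top to bottom, with 1 symbol per sham rat. Neurofilament, tubulin, myelin and globin genes lead. The globin genes Hba1 and Hbb with LOC100134871 were lowest in Sham 2, and Ptgds was at 1628 RPKM in Sham 1 and at 544 to 797 in the other 3 rats.

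The 100 highest genes held 24.2 ± 0.493% of all RPKM, and the 618 to 658 highest genes held 50%. Among the marker lists, pan-neuronal genes gave 10 of the first 100, satellite glia, myelinating Schwann and fibroblast lists gave 3 each, and large myelinated afferent and red cell lists gave 2 each. The peptidergic list with Calca, which also stands in the neuropeptide list, and the sheath list with Ptgds gave 1 each. No gene of the endothelial, mural, macrophage or lymphocyte lists stood among the first 100. Gene lists differ in length and in how abundant their members are, so list sums describe RNA and not cell shares. In whole tissue, fewer cells of a type and less RNA per cell cannot be told apart. Counts of expressed genes in a list are to be read against the 60.3% of all genes that were expressed.

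**Figure D2:**
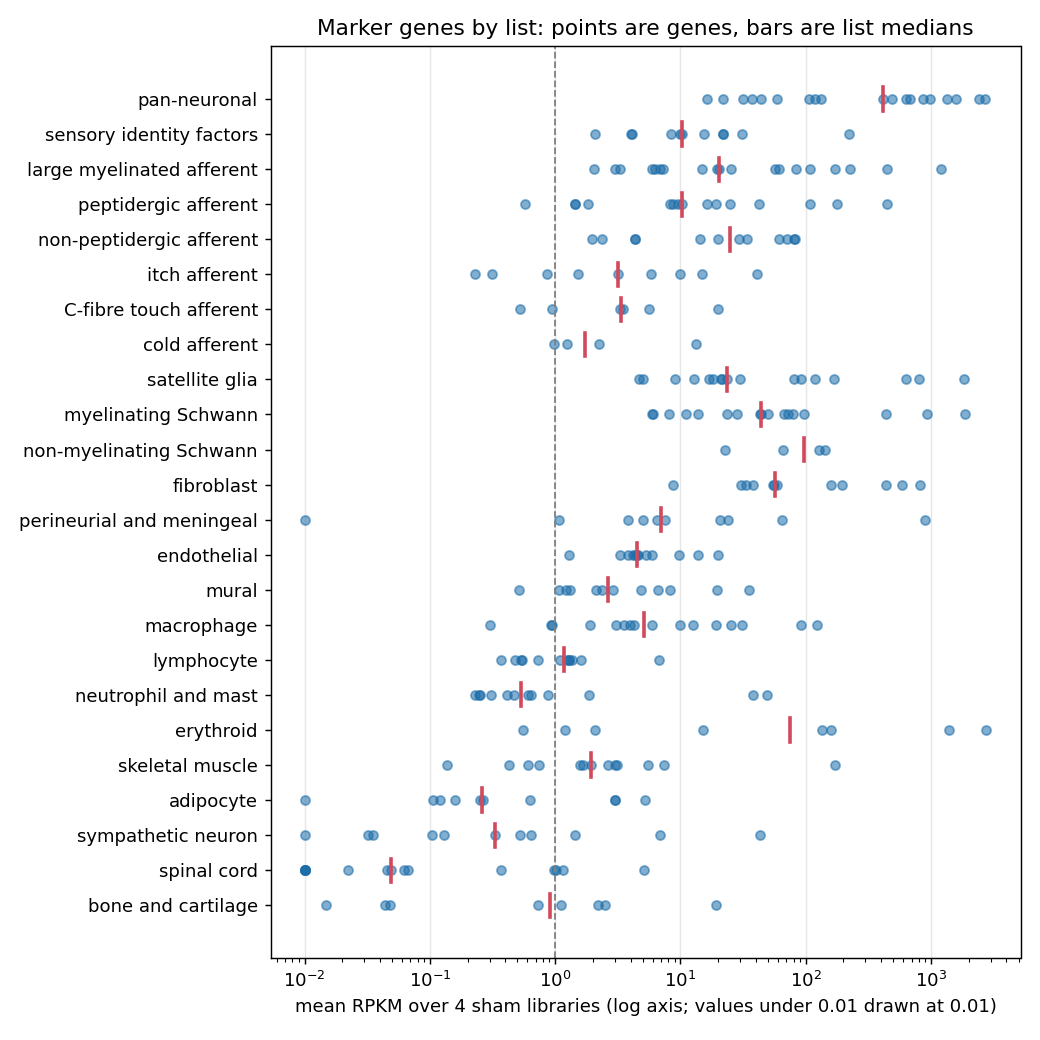
Mean RPKM over the 4 sham libraries (log axis) of each marker gene, in 1 row per list, with a red bar at the list median and a dashed line at 1 RPKM. Pan-neuronal, sensory identity, large myelinated, non-peptidergic, glial and fibroblast lists lie wholly right of the line. The peptidergic, itch, C-fibre touch and cold afferent lists each have at least 1 gene left of it. Most sympathetic, spinal cord, adipocyte and neutrophil or mast cell markers lie left of it.

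Neuronal and sensory markers were set against the tissue label. All 19 pan-neuronal genes were expressed, with a median of 412 RPKM against 9.69 over all expressed genes, and their sum was 12622, 12515, 12605 and 13126 RPKM in Sham 1 to Sham 4. This sum had a CV of 2.18%, and it was 4.33% of all RPKM. Thy1, a surface protein of projection neurons, averaged 683 ± 45.1 RPKM, Prph, the intermediate filament of peripheral neurons, 627 ± 26.7, and Snap25, a protein of vesicle fusion, 490 ± 6.64. Rbfox3, the splicing factor known as NeuN, averaged 21.9 ± 1.26 RPKM. Syn1, a synaptic vesicle protein, differed more, at 35.9 and 36.0 RPKM in Sham 1 and Sham 3 and 28.8 and 25.4 in Sham 2 and Sham 4.

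Genes of sensory neuron identity, all transcription factors apart from Avil, were present at lower levels. Of the 11 genes analysed, all were expressed, with a median of 10.4 RPKM. Avil, an actin-binding protein that marks sensory neurons, led at 221 ± 18.4 RPKM. Etv1, a factor of proprioceptive and other large neurons, averaged 31.1 ± 1.24, and Drgx and Isl1, factors of sensory neuron development, averaged 21.9 ± 1.61 and 21.8 ± 1.22 RPKM. Pou4f3 and Pou4f2, homeodomain factors of sensory cells, were at 10.4 ± 0.646 and 4.03 ± 0.622. Runx1, needed for nociceptor diversity in mice, averaged 4.14 ± 0.525 and Runx3, needed for proprioceptors in mice, 2.07 ± 0.504 RPKM. Runx3 was 1.56 and 1.71 RPKM in Sham 1 and Sham 4, and 2.58 and 2.41 in Sham 2 and Sham 3. The factors Pou4f1, Prdm12, Tlx3, Mafa and Insm1 were not analysed here.

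Markers of large myelinated afferents, which serve touch and position sense, had the highest sum of the subtype lists, in the longest of them. Their median was 20.4 RPKM, below the 24.8 of the non-peptidergic list. All 19 analysed were expressed, summing to 2519, 2378, 2415 and 2574 RPKM in Sham 1 to Sham 4, or 2471 ± 91.0. Nefh, described above, was its largest member. Spp1, the secreted protein osteopontin found in proprioceptors, averaged 442 ± 43.5 RPKM, with its lowest value of 381 in Sham 2. Ldhb, a lactate dehydrogenase subunit, averaged 226 ± 7.59 and Pvalb, the calcium buffer of proprioceptors, 170 ± 14.7 RPKM. Vsnl1, a neuronal calcium sensor, averaged 109 ± 5.88 RPKM. Pvalb was highest in Sham 4, at 191 RPKM, and lay between 159 and 169 in the other 3 rats. Receptors for neurotrophins were lower, with Ntrk2, for BDNF, at 19.7 ± 1.53 RPKM and Ntrk3, for NT-3, at 6.32 ± 0.379. Necab2, a calcium-binding protein, was the lowest of the list at 2.06 ± 0.499 RPKM.

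Peptidergic nociceptors, which release vasoactive peptides, were marked by 12 expressed genes of 15, with a sum of 873 ± 56.3 RPKM. Calca, which encodes the peptide CGRP, had 420, 427, 463 and 464 RPKM in Sham 1 to Sham 4. Tac1, which encodes substance P, had 164, 151, 196 and 198 RPKM. Both precursors were higher in Sham 3 and Sham 4 than in Sham 1 and Sham 2, an order picked out after the values were seen. How many of all expressed genes had it was not counted. Calcb, for the second CGRP, averaged 107 ± 6.6 RPKM. It did not follow this order, with its lowest value of 98.2 in Sham 1 and its highest of 114 in Sham 2. Among other members, Bmpr1b had the order, while Adcyap1, Trpa1 and Kit were lowest in Sham 4. Trpv1, the channel opened by heat and capsaicin, averaged 24.9 ± 1.62 RPKM, and Trpa1, the channel opened by irritants, 19.1 ± 1.43. Bmpr1b, Cartpt and Sstr2 fell below 1 RPKM in at least 1 library, with means of 1.45 ± 0.511, 1.44 ± 0.379 and 0.575 ± 0.170.

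Non-peptidergic nociceptors, which respond to GDNF family factors, were marked by 12 expressed genes of 12, with a sum of 405 ± 23.0 RPKM. Cd55, a complement regulator on these neurons, led at 82.5 ± 7.59 RPKM. P2rx3, the ATP-gated channel of small sensory neurons, had 73.6, 85, 78.1 and 84.7 RPKM in Sham 1 to Sham 4. Ret, the shared receptor for GDNF family factors, averaged 70.7 ± 3.56 RPKM, and its coreceptors Gfra1 and Gfra2 averaged 33.9 ± 2.40 and 20.1 ± 2.49. Scn11a, the sodium channel Nav1.9, averaged 61.0 ± 4.43 RPKM and Grik1, a kainate receptor subunit, 29.5 ± 2.67. Mrgprd, the receptor that defines the main class of these cells in mice, had 12.2, 13.9, 14.1 and 16.9 RPKM and was thus lowest in Sham 1 and highest in Sham 4. Sham 1 had the lowest sum of the list, 377 RPKM, against 396 to 428 in the other 3 rats.

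Smaller afferent classes were represented at lower levels. In the itch list 5 of 9 genes (55.6%) were expressed, near the 60.3% of all genes. Sst, the somatostatin precursor, averaged 41.0 ± 3.65 RPKM, the Mas-related receptor gene Mrgprx3 14.9 ± 3.36, and Il31ra, the receptor for the itch cytokine interleukin-31, 9.84 ± 1.11. Cysltr2, a leukotriene receptor, averaged 5.83 ± 0.798 RPKM and Osmr, the partner chain of Il31ra, 3.17 ± 0.204. Nts fell below 1 RPKM in 1 library, and Nppb, the precursor of the itch peptide known in mice, had 1.02, 0.613, 0.609 and 1.22 RPKM in Sham 1 to Sham 4. Htr1f and F2rl3 were below 1 RPKM in all 4, with means of 0.312 ± 0.208 and 0.231 ± 0.144.

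Genes of the unmyelinated touch fibres known as C-LTMRs were expressed in 4 cases of 6 (66.7%), again near the share of all genes. The highest was Gfra2, which the non-peptidergic class shares. Zfp521, a zinc finger factor, averaged 5.66 ± 0.321 RPKM, and Fam19a4, a secreted protein also named Tafa4, 3.47 ± 0.549. Cdh9, a cadherin, averaged 3.29 ± 0.300 RPKM. The defining genes of this class in mice were low, with Th, tyrosine hydroxylase, at 0.424, 0.491, 0.759 and 0.435 RPKM in Sham 1 to Sham 4. Slc17a8, the glutamate transporter VGLUT3, was at 1.89 RPKM in Sham 2 and at 0.609, 0.575 and 0.668 in Sham 1, Sham 3 and Sham 4. Among cold afferent genes Trpm8, the menthol and cold channel, was steady at 12.6, 13.6, 13.7 and 12.9 RPKM in Sham 1 to Sham 4. Penk, the enkephalin precursor, averaged 2.22 ± 0.499 RPKM, while Cdh8 and Foxp2 fell below 1 RPKM in at least 1 library.

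**Figure D3:**
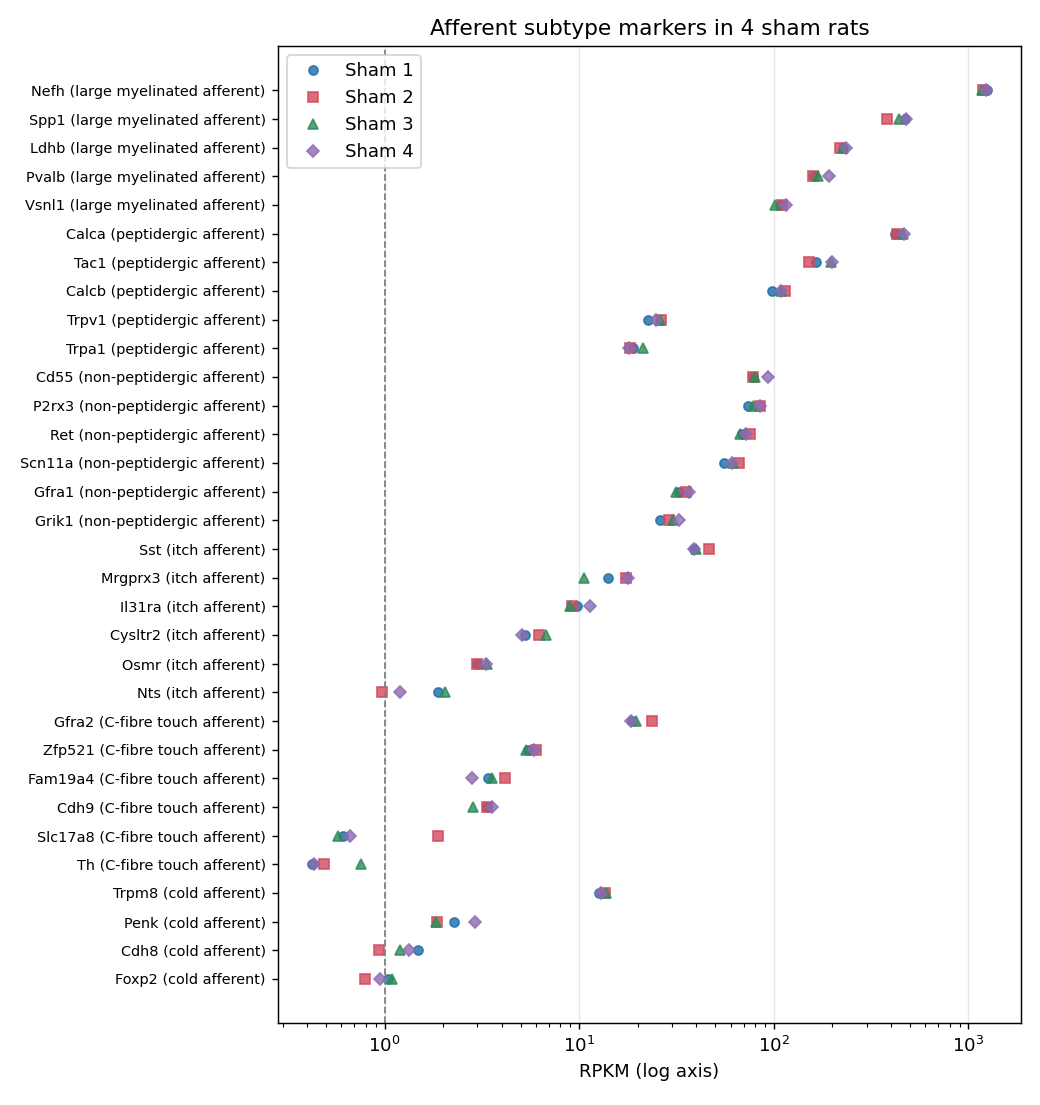
RPKM (log axis) of genes among the 6 highest of each afferent subtype list, 1 symbol per sham rat, with a dashed line at 1 RPKM. The 4 rats nearly coincide for most genes. Slc17a8 stood apart in Sham 2, at 1.89 RPKM against 0.575 to 0.668 in the other 3 rats.

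Channels that turn stimuli into impulses were widely expressed, with 23 of 24 analysed genes above the threshold and a sum of 513 ± 21.3 RPKM. After P2rx3 and Scn11a came Scn10a, the nociceptor sodium channel Nav1.8, at 54.0 ± 5.19 RPKM, Asic3, an acid-sensing channel of sensory neurons, at 44.8 ± 2.34, Scn9a, the sodium channel Nav1.7, at 43.6 ± 2.80, and Asic1 at 27.9 ± 1.87. Scn10a was lowest in Sham 1, at 48.6 RPKM, and highest in Sham 2, at 60.9, the same lowest and highest rats as for P2rx3, Scn11a and Scn9a. Tmc1, a channel protein of hair cells, was the exception at 0.0191 ± 0.0221 RPKM, with no read in Sham 1 and Sham 2. Piezo2 was not analysed here.

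Of 20 peptide and granin genes 13 (65%) were expressed, a share near the 60.3% of all genes. Below Calca and Tac1 stood Scg2, secretogranin II, at 127 ± 6.34 RPKM, then Calcb, and then Chgb and Chga, chromogranins of secretory granules, at 69.9 ± 3.27 and 63.6 ± 0.465. Chga was the steadiest of the list, with 63.3, 63.3, 64.3 and 63.7 RPKM. Gal, the galanin precursor, was among the least steady, with 6.11, 6.88, 11.8 and 10.1 RPKM in Sham 1 to Sham 4. It was higher in Sham 3 and Sham 4 than in Sham 1 and Sham 2, as for Calca and Tac1 but not for Calcb and Adcyap1. Cck was expressed at 1.30 ± 0.146 RPKM. Vip, Pdyn and Grp stayed below 1 RPKM in all 4 libraries, and Npy fell below it in Sham 3, at 0.677.

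Of 13 genes of transmitter handling 5 were expressed, led by genes of glutamate. Slc17a7, the vesicular glutamate transporter VGLUT1, averaged 61.0 ± 3.34 RPKM, and Slc17a6, VGLUT2, 33 ± 2.46. Genes of GABA and glycine neurons were at or near 0, with Gad1 at 0.368 ± 0.0512 RPKM, Gad2 at 0.0488 ± 0.0689, Slc6a5 at 0.0626 ± 0.0418 and Slc32a1 without a read in any library. A count of 0 over all 4 libraries allows up to 3 reads, or 0.122 CPM, counting error only. Tph2 and Tph1, the enzymes of serotonin synthesis, were expressed at 5.52 ± 0.607 and 1.42 ± 0.300 RPKM, while Slc6a4, the serotonin transporter, was at 0.0654 ± 0.0199. Slc18a2 and Slc18a3, the vesicular transporters of monoamines and acetylcholine, averaged 0.639 ± 0.175 and 0.0447 ± 0.0548 RPKM.

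Every glial marker analysed was expressed. All 17 satellite glia genes were expressed, with a sum of 3898 ± 239 RPKM. Sham 1 stood apart at 4257 RPKM, against 3776, 3765 and 3795 in Sham 2 to Sham 4. Apoe made up much of this gap, at 2040 RPKM in Sham 1 and 1784, 1777 and 1777 in the other 3 rats. S100b, a calcium-binding protein of glia, averaged 635 ± 27.8 RPKM, Glul, glutamine synthetase, 118 ± 15.9, and Timp3, a protease inhibitor, 91.8 ± 2.79. Kcnj10, the potassium channel of satellite glia, averaged 16.8 ± 1.25 RPKM, and Gja1, a gap junction protein, 9.10 ± 1.47. Fabp7, a lipid-binding protein of satellite glia, had 27.7, 21.9, 19.9 and 16.4 RPKM in Sham 1 to Sham 4. Apoe and Sparc are also made by macrophages and fibroblasts, so the sum is not of satellite glia alone.

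All 17 genes of myelinating Schwann cells were expressed as well, with a sum of 4239, 3920, 3396 and 3570 RPKM in Sham 1 to Sham 4. Sham 1 and Sham 2 thus lay above Sham 3 and Sham 4. Pmp22 and Mbp, the myelin basic protein, had the same split, with Mbp at 513, 425, 400 and 396 RPKM. Prx, a scaffold of peripheral myelin, averaged 96.6 ± 9.30 RPKM, Pmp2, a myelin lipid carrier, 79.2 ± 14.5, and Mal, a myelin proteolipid, 72.8 ± 5.17. Pmp2 did not follow the split, with 86.4 RPKM in Sham 4 and 70.7 in Sham 2. Egr2, the transcription factor that drives myelination, did not follow either. It was highest in Sham 3 at 13.01 RPKM, against 7.75, 6.43 and 5.14 in Sham 1, Sham 2 and Sham 4. It is also an early response gene of lymphocytes, and T cell genes were highest in Sham 3 too. Their part in the value was not tested. The 4 analysed genes of non-myelinating Schwann cells summed to 357 ± 14.0 RPKM, and Chl1 and Matn2 of that list were not analysed here. Scn7a, an atypical sodium channel, averaged 141 ± 8.76, Ngfr, the low-affinity neurotrophin receptor, 127 ± 5.84, and the adhesion genes L1cam and Ncam1 65.3 ± 2.75 and 22.6 ± 1.27. Neurons express the last 3 too.

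Connective tissue and sheath genes followed. All 12 fibroblast genes were expressed, with a sum of 2477 ± 61.7 RPKM and a CV of 2.49%. Single genes were less even, with a median CV of 14.6% against 1.84% from counting. Dcn, the matrix proteoglycan decorin, averaged 590 ± 13 RPKM and Mgp, a matrix protein, 437 ± 65.4. Col3a1, a fibrillar collagen, averaged 195 ± 23.2 and Lum, lumican, 158 ± 13.1. Apod was highest in Sham 2, at 992 RPKM against 719 to 826, while Col3a1 and Lum were lowest there, at 163 and 139. Such departures offset each other in the sum. The perineurial and meningeal list had 8 of 10 genes expressed and was the least even of the cell type lists. Its sum was 1775 RPKM in Sham 1, against 674, 932 and 746 in Sham 2 to Sham 4, and without Ptgds it was 148 against 130, 135 and 123. Some other genes of the list were also highest in Sham 1. Aldh1a2, the enzyme of retinoic acid synthesis, was at 11.0 RPKM in Sham 1, against 4.29, 8.91 and 6.15 in Sham 2 to Sham 4, and Slc6a13, a GABA transporter, at 6.94 against 3.05, 5.32 and 4.81. Itgb4, an integrin of perineurial and Schwann cells, and Slc2a1, a glucose transporter, were highest in Sham 1 by less, at 72.3 RPKM against 64.3, 65.4 and 58.8, and at 26.2 against 23.8, 25.3 and 20.3. Cldn1, a tight junction protein, was highest in Sham 2 and averaged 20.8 ± 1.1 RPKM. Perp was highest in Sham 2 too, at 7.30 RPKM against 6.22 in Sham 1, and Krt19 in Sham 4, at 4.93 against 3.33 in Sham 1. Lypd2 had no read and Slc22a6 fell below 1 RPKM in Sham 2 and Sham 4.

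Vessel genes were low but present. All 12 endothelial genes were expressed, with a sum of 80.8 ± 10.2 RPKM. Cldn5, the tight junction protein of nerve and brain vessels, averaged 19.98 ± 1.79 RPKM, Emcn, a surface sialoprotein, 13.9 ± 2.57, Cdh5, the adhesion protein of endothelial junctions, 9.67 ± 1.40, and Pecam1 5.90 ± 1.41. Of 12 mural genes 10 were expressed, led by Tagln, a smooth muscle actin-binding protein, at 35.4 ± 5.63 RPKM and Rgs5, a pericyte regulator, at 19.5 ± 1.30. Cnn1 fell below 1 RPKM in Sham 2 and Sham 4, and Kcnj8 was below it in all 4, at 0.512 ± 0.148. The highest sums of both vessel lists were those of Sham 3, at 92.2 and 99.0 RPKM.

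Immune cell genes were led by those of macrophages. Of 16 macrophage genes 13 were expressed, with a sum of 355, 292, 384 and 320 RPKM in Sham 1 to Sham 4. Lyz2, lysozyme, averaged 123 ± 13 RPKM, Cd74, the invariant chain of antigen presentation, 92.2 ± 13.9, and the complement genes C1qc, C1qa and C1qb 30.8 ± 4.87, 25.1 ± 4.19 and 19.3 ± 2.68. Itgam, Cx3cr1 and Siglec1 did not pass the threshold, at 0.941 ± 0.185, 0.925 ± 0.456 and 0.300 ± 0.0583 RPKM.

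Lymphocyte genes were scarce, with 2 of 12 expressed. Cd4, which rat macrophages carry as well, averaged 6.80 ± 1.00 RPKM, and Cd79b, a B cell receptor chain, 1.60 ± 0.542. T cell genes differed between rats. Cd3e was at 3.26 RPKM in Sham 3, against 0.312, 0.375 and 1.03 in Sham 1, Sham 2 and Sham 4, and Cd3d at 1.73 against 0.483, 0.435 and 0.289. The 6 T cell genes Cd3d, Cd3e, Cd3g, Cd8a, Cd8b and Lck held 171 reads in Sham 3, and 40, 35 and 51 in Sham 1, Sham 2 and Sham 4. Sham 3 thus lay above the other 3 rats, at counts low enough that single genes are imprecise. Of 12 neutrophil and mast cell genes 3 were expressed. S100a9 and S100a8, calcium-binding proteins of neutrophils, averaged 48.7 ± 13.4 and 38.0 ± 6.59 RPKM, and the mast cell protease gene Mcpt1l1 1.86 ± 0.554. Mpo and Elane, granule enzymes made in the bone marrow, averaged 0.640 ± 0.536 and 0.416 ± 0.246.

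Several lists were set to look for tissue outside the ganglion. Red cell genes were abundant, with 6 of 8 expressed and a sum of 4862, 3037, 5344 and 4707 RPKM in Sham 1 to Sham 4. The 4 globin genes of the list made up nearly all of it, at 4469 ± 1001 RPKM. Hba1 had 2901, 1901, 3344 and 2938 RPKM and Hbb 1535, 949, 1649 and 1477. Alas2, the first enzyme of haem synthesis in red cell precursors, had 15.8, 11.4, 16.8 and 16.4 RPKM. Sham 2 was lowest for all 3 genes. LOC100134871, which the sources used here leave without a role, was also lowest in Sham 2, at 927 RPKM against 1616, 1510 and 1398. Globin copies may share reads, so the split among them is uncertain.

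Skeletal muscle genes were low and uneven. Besides Pvalb, which large afferents express, 2 of the 12 other genes were expressed, Acta1 and Tnnt3. Sums without Pvalb were 59.3 RPKM in Sham 3, against 17.8, 13.2 and 24.7 in Sham 1, Sham 2 and Sham 4. Acta1, the skeletal actin, was at 12.7 RPKM in Sham 3, against 5.20, 5.22 and 6.33, and Tnnt3, a fast muscle troponin, at 11.0 against 3.91, 3.35 and 3.93. Ckm, muscle creatine kinase, was at 7.32 RPKM in Sham 3, against 1.34, 0.803 and 2.60. All 3 genes were highest in Sham 3. Of 10 adipocyte genes 3 were expressed. They were Cfd, the protease adipsin, at 5.24 ± 1.28 RPKM, Fabp4, a fatty acid carrier of fat cells, vessels and macrophages, at 3.01 ± 1.80, and Lpl, lipoprotein lipase, at 3.01 ± 0.711. Lpl also stands in the large myelinated afferent list. Adipoq, for the fat cell hormone adiponectin, was at 1.41 RPKM in Sham 3 and at 0.144, 0.388 and 0.580 in Sham 1, Sham 2 and Sham 4, and Lep had no read.

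Markers of neighbouring nervous tissue were low. Of 11 sympathetic neuron genes 2 were expressed, the nicotinic receptor subunits Chrna3 at 43.1 ± 6.56 RPKM and Chrnb4 at 6.87 ± 1.06, which sensory neurons also express. The other 9 summed to 3.24 ± 0.592 RPKM. Dbh, the enzyme of noradrenaline synthesis, had at most 0.0427 RPKM in a library, and Phox2a, a factor that noradrenergic neurons need, had no read. Of 15 spinal cord genes 1 was expressed, the glial filament gene Gfap, which peripheral glia also express, at 3.78, 7.77, 4.20 and 4.88 RPKM in Sham 1 to Sham 4. Olig2 and Mnx1, factors of oligodendrocytes and motor neurons, and Slc32a1 had no read. Aqp4, a water channel not limited to the spinal cord, was at 2.94 RPKM in Sham 3 and at 0.230, 0.470 and 0.412 in Sham 1, Sham 2 and Sham 4. The 14 genes of the list other than Gfap held 293 reads in Sham 3, 157 of them of Aqp4, and 80, 132 and 141 in Sham 1, Sham 2 and Sham 4. Which tissue the Aqp4 reads came from was not tested. Of 8 bone and cartilage genes 3 were expressed, Ctsk at 19.3 ± 2.67, Comp at 2.51 ± 0.429 and Col2a1 at 2.22 ± 0.411 RPKM. Sp7 and Acan, defining genes of bone and cartilage, averaged 0.0148 ± 0.0296 and 0.0438 ± 0.0324.

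**Figure D4:**
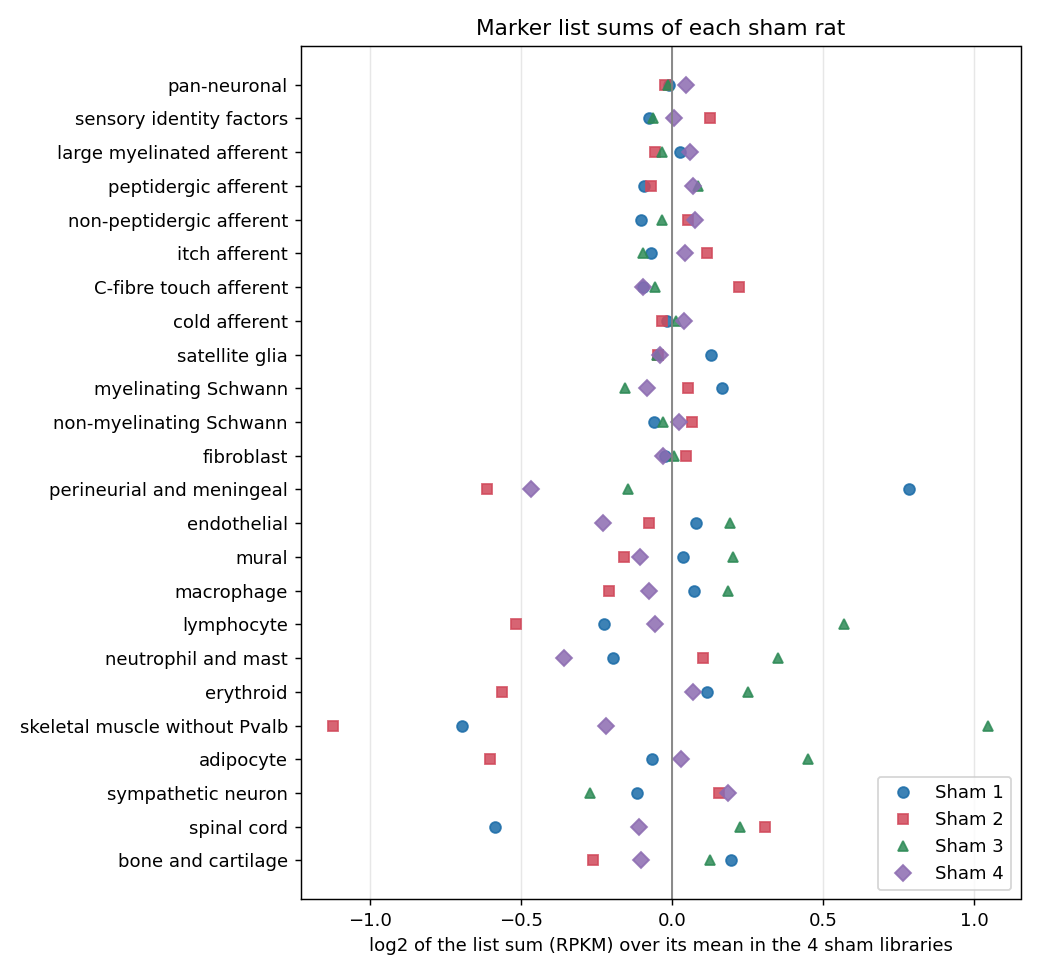
Sum of RPKM over each marker list in each sham rat, as log2 over the mean of the 4 rats (0 is the mean), 1 symbol per rat. Neuronal and fibroblast sums lie close to 0, the fibroblast sum with single genes that depart in opposite directions. The perineurial and meningeal sum is set by Ptgds in Sham 1, the muscle sum (drawn without Pvalb) and the lymphocyte sum are highest in Sham 3, and the red cell sum is lowest in Sham 2.

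Hox genes, whose paralogue number rises along the body axis from head to tail, gave a positional check. Of 27 genes analysed 10 were expressed. Hoxd1, which marks nociceptors in mice, led at 11.1 ± 1.74 RPKM, ahead of Hoxb7 at 4.22 ± 0.817, Hoxb5 at 3.02 ± 0.586, Hoxb8 at 2.67 ± 0.372, Hoxc4 at 2.27 ± 0.326 and Hoxb3 at 1.79 ± 0.505. By paralogue group, 2 of 5 genes of groups 1 to 3 were expressed, 7 of 10 of groups 4 to 8, and 1 of 3 of group 9. The last was Hoxd9, at 1.70 ± 0.131 RPKM, while Hoxb9 and Hoxc9 were at 0.396 ± 0.246 and 0.107 ± 0.0855. None of the 9 genes of groups 10 to 13 was expressed, and 8 of them had no read in any library. The exception was Hoxd10, with 2 reads in all. Hoxa9, Hoxa10 and 10 further Hox genes were not analysed here.

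Gene families grouped by symbol were counted as well, chosen after the tables had been seen. Their counts are to be read against the 60.3% of all genes that were expressed. Of 80 ribosomal protein genes 77 were expressed, taking 4.03 ± 0.328% of all RPKM, and of 42 genes of respiratory complex I 41 were. Of 1197 olfactory receptor genes and 181 vomeronasal receptor genes 0 were expressed. Among 10 sodium channel alpha subunits 7 were expressed, among 7 P2X receptors 6, among 20 TRP channels 11 (55%) and among 91 potassium channel genes 58 (63.7%). The last 2 shares are near that of all genes. The potassium channel genes were led by the auxiliary subunit Kcnab2 at 70.6 RPKM and the axonal channel Kcna1 at 56.9. Of 14 serotonin receptor genes 6 were expressed, with the ion channel subunits Htr3b and Htr3a at 47.4 and 44.3 RPKM well above Htr1d, the next, at 9.81. Of 19 GABA-A receptor genes 8 were expressed, led by Gabra2 at 50.04 RPKM. Of 13 Mas-related receptor genes 6 were, with Mrgprb4 at 34.5 RPKM ahead of Mrgprx3 and Mrgprd. Of 9 adrenergic receptor genes 1 was, Adra2c at 4.81 RPKM, and of 43 keratin genes 3 were.

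The 4 rats resembled each other closely over the expressed genes. Genes below 1 RPKM in any rat are left out of this set. Some of those differed widely, such as Fam111a, described under other observations. The median expressed gene had a CV of 7.78% in CPM, where counting error alone gives 6.53%. For the 1283 genes with a mean of at least 1000 reads the median CV was 4.12%, against 2.45% from counting. The edgeR common dispersion was 0.00413, a biological coefficient of variation of 6.43%. The highest library exceeded the lowest by a median of 1.19-fold. A CV under 10% was found for 64.5% of expressed genes and a CV under 20% for 91.9%. The median absolute log2 deviation of a library from the mean of the 4 was 0.0722 ± 0.00271. Pearson correlations of library pairs ran from 0.990 to 0.992 across 10474 genes, which are not independent replicates.

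Few genes departed by 2-fold in 1 rat from the mean of the other 3. In Sham 1, 11 of 10474 genes (0.105%) were at least 2-fold higher and 6 (0.0573%) at least 2-fold lower. In Sham 2, 5 (0.0477%) were higher and 13 (0.124%) lower. In Sham 3, 16 (0.153%) were higher and 11 (0.105%) lower, and in Sham 4, 2 (0.0191%) were higher and 8 (0.0764%) lower. No gene of the pan-neuronal, sensory identity, afferent subtype, channel, neuropeptide, transmitter or Hox lists was among them. With shares of at most 0.153% over all genes, few or none would be found in lists of that size. This absence thus says little about the lists. Members below 1 RPKM in any library were not eligible, among them Slc17a8, at 1.89 RPKM in Sham 2 and 0.575 to 0.668 in the other 3. The marker genes among them were Ptgds and Hba2, higher in Sham 1, and Tnnt3, Acta1, Ptprc, Egr2 and Fabp4, higher in Sham 3. Those lower were Aldh1a2, Hba2 and Ptprc in Sham 2 and Fabp4 in Sham 1.

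The genes with the largest dispersion among those with at least 100 reads on average were led by RT1-CE16, a class I histocompatibility gene, at 47.3 RPKM in Sham 2 and 8.31, 8.56 and 7.42 in Sham 1, Sham 3 and Sham 4. RT1 genes are near-identical copies that differ between rats, so their reads may be split unevenly. Gpx2, a glutathione peroxidase, was at 10.3 RPKM in Sham 3, against 47.7, 34.3 and 29.5 in Sham 1, Sham 2 and Sham 4. Necab1, a neuronal calcium-binding protein, was lowest in the same rat, at 14.5 RPKM against 45.5, 30.3 and 40.6. Phkb, a subunit of phosphorylase kinase, split the rats into pairs, at 8.63 and 8.92 RPKM in Sham 2 and Sham 3 and at 3.62 and 3.54 in Sham 1 and Sham 4.

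Other variable genes followed the libraries that stand apart. Ptprc, the leukocyte antigen CD45, was at 7.84 RPKM in Sham 3, against 3.17, 2.38 and 3.79 in Sham 1, Sham 2 and Sham 4. The sum of the other 15 macrophage genes was highest in Sham 3 as well, at 376 RPKM against 352, 290 and 316, and T cell genes were highest there as given above. Slc6a20, a proline transporter, was at 11.9 RPKM in Sham 1, against 4.49, 7.31 and 4.37 in Sham 2 to Sham 4. Fmod, the matrix protein fibromodulin, was at 10.5 against 4.35, 7.05 and 3.91, and Prg4, lubricin, at 8.48 against 4.37, 3.92 and 2.79. All 3 were highest in Sham 1, the library with the highest Ptgds. Hba2 and Hba-a1, alpha globin copies, were lowest in Sham 2, at 77.7 and 19.4 RPKM. The part of blood, muscle and sheath tissue in these values was not tested.

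**Figure D5:**
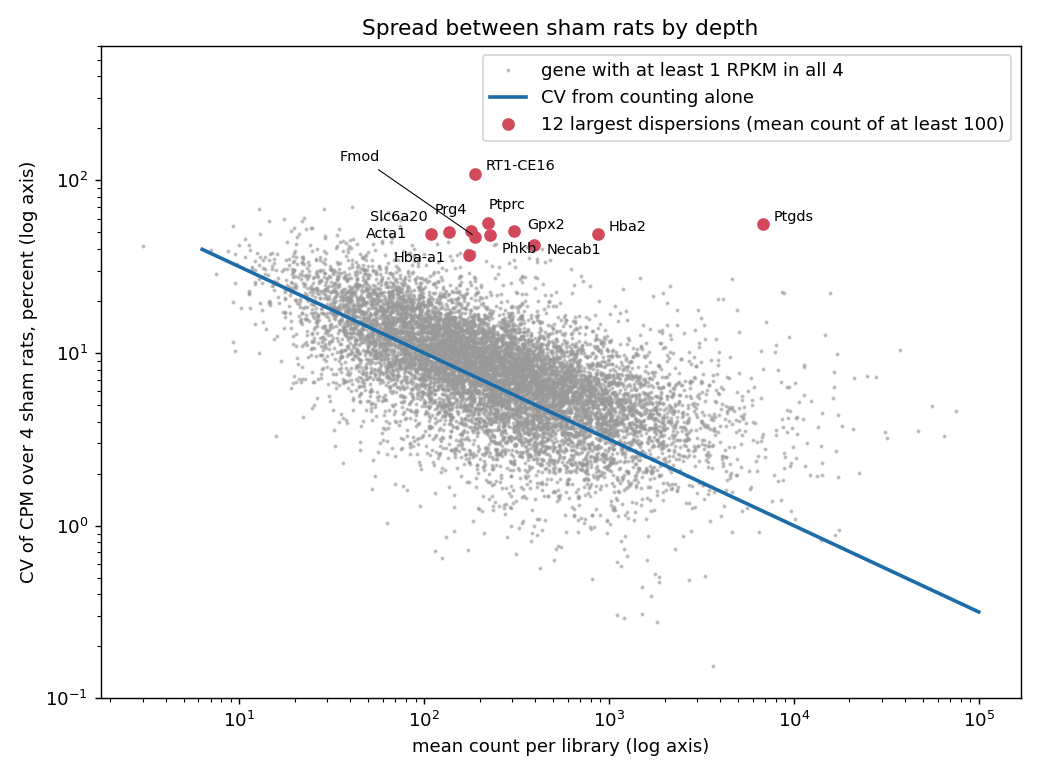
CV of CPM over the 4 sham rats (vertical, log axis) against mean count per library (horizontal, log axis) for expressed genes, with the CV that counting alone gives as a line. The median gene lies near the line at low counts and above it at high counts. From 5000 reads on, the median CV was 3.79% against 1.06% from counting. The 12 genes of largest dispersion are named, RT1-CE16 with a CV of 109% and Ptgds with 55.7% among them.

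In all, 24 expressed genes (0.229%) had a CV over 50%, and 6 of these had at least 100 reads on average, of 7909 such genes. At the other end stood genes whose 4 values were nearly equal. Agtpbp1, a carboxypeptidase that trims tubulin, had 79.9, 80.4, 80.3 and 79.6 RPKM in Sham 1 to Sham 4. Opa1, a protein of mitochondrial fusion, averaged 37.9 ± 0.160 RPKM, Chd6, a chromatin remodeller, 10.3 ± 0.0736, and Nars, an asparagine tRNA synthetase, 102 ± 0.161. Tspan13, Abhd12, Stx12 and Pja1 completed the 8 genes of smallest CV. Their CVs, from 0.154% to 0.482%, lie below what counting alone gives because they were picked as the smallest of many.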

How the data were processed

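Poly-A RNA of thoracic dorsal root ganglia was sequenced in 4 sham rats, 1 library each. Per the series' design text, the authors used bcl2fastq 2.16.0.10 to demultiplex 75 bp reads and cutadapt to trim them. STAR 2.3.0 mapped the reads to rn6, and Partek 6.6 annotations defined the genes. The deposited whole-number counts are, per the values, the authors' estimated counts after rounding, and both tables differ by at most 0.5. As their values show, the deposited RPKM were made by the authors from the estimated counts, a transcript length and the total reads of the library, including reads outside genes, so RPKM is lower than if scaled to gene reads. The share of reads by gene region is a percent from the authors' deposited alignment summary, and RNA integrity is a score from their sample sheet. How strand was used in counting is not given, so overlapping and antisense genes cannot be told apart.

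Levels are the deposited RPKM. TMM factors and dispersions were computed from the rounded counts with edgeR 4.0.16 in R 4.3.3, which was tested on simulated data. CVs were taken from TMM-scaled CPM without a prior count. A prior count of 2 entered the 2-fold counts, log2 deviations, correlations and the median ratio of highest to lowest library. Counting CVs are Poisson. With 1 group no test was made. Of the identifiers, 14979 equal a RefSeq symbol, and 2 list members were matched through a synonym. Date-like identifiers, 26 in number with 0.241% of counts, were kept and not named.

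Named are the 25 genes of highest mean RPKM, up to 6 of the highest members per list and members under 1 RPKM in a library, and the 12 genes of largest dispersion and 8 of smallest CV with at least 100 reads. Other genes named, among them the lower members of lists, were chosen after their values were seen. The sham group and the 28 lists were chosen with earlier results of these data known. Alternatives were other thresholds, filters and scalings (TPM, TMM, DESeq2 1.42.0 size factors) and leaving out each library. Some genes that this rule names are not reported here.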

Additional observations from a re-analysis of the deposited data

Results flagged for a closer look

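Values were singled out where the gap between 1 of the 4 rats and the nearest of the other 3, as a share of the range, passed Dixon's critical value. Of 305 genes, list sums and library measures looked at, 36 had such a gap. Chance flags about 1 in 20 groups of 4, but that share is no yardstick here. Genes with a single read in 1 library and none in the others pass by construction. The genes chosen for large dispersion are among those looked at, and list sums contain some of them. Genes chosen for the smallest CV are there too, where a gap can be below counting error. The odd rat was Sham 1 in 8 cases, Sham 2 in 11, Sham 3 in 11 and Sham 4 in 6.

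Sham 3 was the odd rat for muscle and T cell genes. It had 12.7 RPKM of Acta1, 11.0 of Tnnt3, 4.23 of Tnni2 (0.567 to 0.988 in the other 3) and 1.29 of Myh4. It had 2.79 RPKM of Lck (0.690 to 1.03 in the other 3) and 1.73 of Cd3d. It also stood apart for Aqp4, at 2.94 RPKM, and for Pck1, an enzyme of glucose and glycerol synthesis, at 0.835. Chat, at 0.0266, and Grp, at 0.110, had no read in the other 3. Nars, at 102.6 (102.3 in the other 3), was looked at for its small CV, and its gap is below its counting CV of 1.92%. In CPM, Nars in Sham 3, at 443, lay between Sham 2, at 440, and Sham 4, at 445.

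Sham 1 was odd for Apoe, at 2040 RPKM, for the satellite glia sum, at 4257, and for the cartilage genes Comp, at 3.15, and Acan, at 0.0924. It had 0 RPKM of Dbh, which had 0.0425 to 0.0427 RPKM in the other 3. Sham 1 was also the shallowest library, with 9359058 reads, 11028128 alignments and 5656582 counts.

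Sham 2 was odd for RT1-CE16, at 47.3 RPKM, for Sst, at 46.4 (38.7 to 39.7 in the other 3), for Slc17a8, at 1.89, for L1cam, at 69.4, and for the C-LTMR sum, at 39.7 against 31.8 to 32.7. It had less Tmsb4x, at 1892 RPKM against 2083 to 2095. It had traces of Vip at 0.577, Opalin at 0.0357 and Sp7 at 0.0593 RPKM. Its percent of reads between genes was 28.8, and 658 genes made up 50% of its RPKM.

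Sham 4 was odd for Cd55, at 93.9 RPKM (77.9 to 80.0 in the other 3), for the contractile gene Mylk, at 2.41 (2.98 to 3.08), and for Hdc, the histamine enzyme, at 0.0410 (0.368 to 0.412). It alone had reads of Ucp1, at 0.480, Hand2, at 0.141, and Olig1, at 0.0894 RPKM.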

How the results depend on the processing

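No paired analysis was possible because only 1 group was described and no test was made. All 48 alternatives of scaling for the 24 marker lists left the sum within 1 SD. With TMM factors of 0.996 to 1.006 and nearly equal RPKM totals, they could hardly move a mean and show little of stability. The 96 alternatives that leave out 1 library could not move a sum beyond its SD by construction and show nothing of stability. The perineurial and meningeal sum, 1032 RPKM, was 784 without Sham 1. The number of expressed genes ran from 9385 at 2 RPKM to 11659 for 1 TPM. The share of the 100 highest genes was 21.9% by CPM, not divided by length, and 25.02% without ribosomal protein genes. The median absolute log2 deviation was 0.1001 over all genes with any count, since low counts vary more, and 0.0668 to 0.0691 with 1 library left out, where fewer libraries pull the mean closer. The biological coefficient of variation was 6.44% without scaling factors, 6.74% over genes with at least 10 counts in 1 library, and 6.09 to 6.85% with 1 library left out. At a CV threshold of 30% in place of 50%, 225 genes passed. With 4 rats an SD is itself imprecise, and genes near 1 RPKM rest on few reads.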

Other observations

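Genes that reached 1 RPKM in some sham rats and not in others were outside the set described above. Of 128 such genes with at least 50 reads in the highest library and at least 4 in the lowest, the 10 with the largest ratio between libraries were looked up after their values were seen. Fam111a, a DNA-replication-linked protease gene, led with 15.2 RPKM in Sham 1, against 0.603, 0.480 and 0.571 in Sham 2 to Sham 4, or 454 reads against 20, 16 and 19. Chad, a cartilage matrix gene, ran from 4.03 RPKM in Sham 4 to 0.230 in Sham 3. Of the other 8 genes all were highest in Sham 3. Among them were the muscle genes Myh1, Myh4, Myl1 and Ckm, the lymphocyte gene Gimap7, the water channel gene Aqp4, and LOC100912312. Gimap7 had 59 reads in Sham 3, and 12, 7 and 20 in Sham 1, Sham 2 and Sham 4.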
